A study of Populus alba x Populus glandulosa with 9 samples.

Results

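The genes described here were expressed at 5 FPKM or more in the upper and middle stem of 84K poplar and were lower in the lower stem. Equal levels in upper and middle stem were not required, and the ratio of middle to top mean ran from 0.445 to 3.90. They number 188 of the 85755 gene identifiers measured, and they were selected on their measured FPKM, a read count scaled to gene length and library total. A gene was taken when its lowest value over the 6 top and middle libraries was at least 5 FPKM and at least 3 times its highest bottom library. Genes with a gap of at least 1.5 times between all top and all middle libraries would have been left out, but 0 genes met the first conditions and had such a gap. The level pattern over the 3 positions therefore chose the genes, and it is given as a description.

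84K poplar is a fast-growing hybrid of Populus alba and Populus glandulosa that is used as a laboratory tree. Stems of wild-type trees were sampled at 6 months, when they stood about 200 cm high, each position giving 3 libraries. Internodes 2 to 3 are called top, internodes 9 to 10 middle and internodes 14 to 15 bottom. Plants were propagated from cuttings, and genotype and age were the same for the 3 positions. Separate plants behind the 3 libraries of a position are not stated in the labels, so p-values reflect spread among libraries that may be technical in part.

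An internode is the stretch of stem between 2 leaves, and a tree stem is youngest at its tip. Near the tip the internodes are still elongating and are made of primary tissues. Further down, the vascular cambium adds secondary xylem and phloem, the xylem cells thicken and lignify their walls, and many of them die as they mature. In bulk stem RNA, fewer cells of a type and less RNA per cell cannot be told apart. The files pair the identifiers with no gene names, so no role is given for any gene and the positions were not checked against marker genes.

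The libraries held 41434042 to 75217046 counts, every gene's count being even, and a read pair is taken as 2 counts. Between 55282 and 56870 identifiers had a count in a library. Genes whose lowest top and middle value was at least 5 FPKM are called eligible here. There were 22644 of them, so the 188 genes made up 0.83% of the eligible genes. The median of the other 22456 eligible genes was 13.8 to 14.9 FPKM over the 9 libraries.

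As a group, the 188 genes were expressed above the typical eligible gene in the upper stem and far below it in the lower stem. Their median was 28.6, 38.8 and 34.3 FPKM in top libraries 1, 2 and 3. It was 29.4, 95.6 and 26.1 FPKM in middle libraries 1, 2 and 3, and 2.17, 1.69 and 2.57 FPKM in bottom libraries 1, 2 and 3. Middle library 2 stood apart, with the highest group median of all 9 libraries. Its labels are those of the other middle libraries, and its harvest and labelled position were not checked here, so every middle mean and every contrast with the middle includes a library of unexplained height. The 3 bottom medians ran from 1.69 to 2.57 FPKM.

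**Figure D1:**
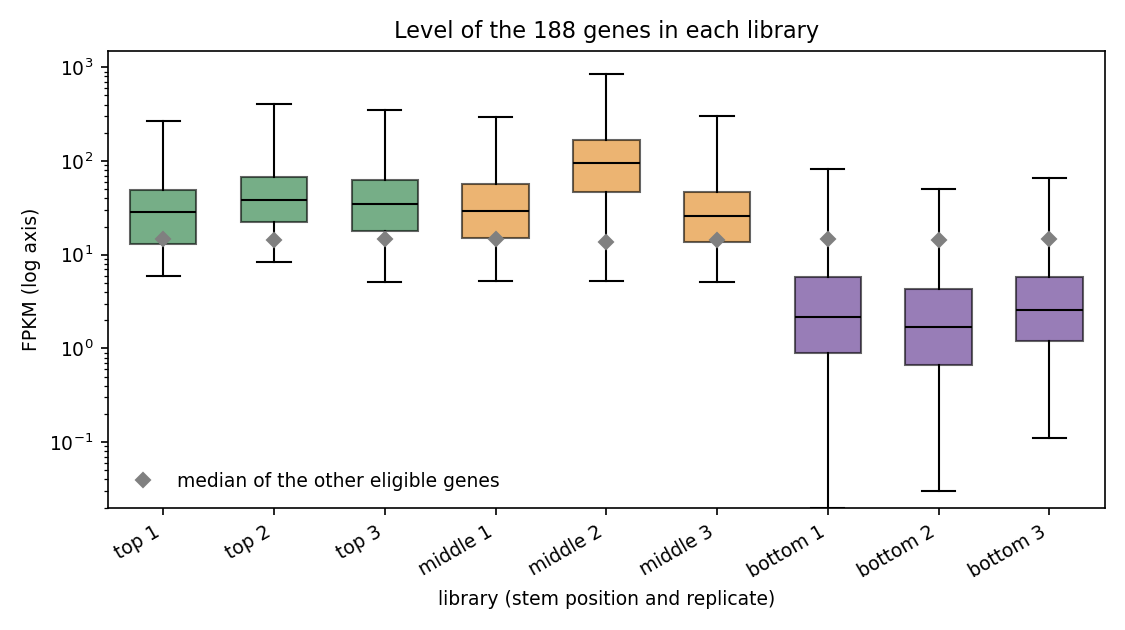
FPKM (log axis) of the 188 genes in each of the 9 libraries, ordered from top to bottom of the stem. Boxes show quartiles and median, whiskers the lowest and highest gene (a value of 0 is drawn at the lower end of the axis), and grey diamonds the median of the other eligible genes, which stays between 13.8 and 14.9 FPKM. The boxes of the bottom libraries lie below the diamonds and those of middle library 2 lie highest.

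Together the genes took 0.784% to 1.05% of the counts of the top libraries, 0.854%, 2.28% and 0.737% of middle libraries 1, 2 and 3, and 0.0798% to 0.101% of the bottom libraries. In the bottom libraries 134, 151 and 136 of the 188 genes were under 5 FPKM, and 55, 63 and 35 were under 1 FPKM. Loss of signal was seldom complete. A single gene had 0 counts in 1 bottom library, and over the 3 bottom libraries the genes held 8 to 4189 read pairs each, with a median of 193.5. At the other end, 15, 24 and 27 genes exceeded 100 FPKM in the top libraries and 16, 87 and 15 in the middle libraries, against 0 in each bottom library.

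The depth of the fall varied widely between genes. The ratio of the lowest top or middle library to the highest bottom library had a median of 4.87, with quartiles of 3.66 and 8.61 and a maximum of 47.1. It lay between 3 and 4 for 65 genes, between 4 and 5 for 30, between 5 and 10 for 53, between 10 and 20 for 30, and at 20 or more for 10. The ratio of means does not take the extreme library, and by its construction it cannot be smaller. The bottom mean was lower than the top mean by a median factor of 14.04 and lower than the middle mean by a median factor of 18.6. Without middle library 2 the factor against the middle was 11.9, with quartiles of 7.06 and 22.3. Across the 188 genes, mean top and middle level had a Spearman rho of -0.031 with the ratio (n = 188 genes that share the same libraries). With mean bottom level it had a rho of 0.667. The rule used all these values, so nothing is read from either coefficient.

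**Figure D2:**
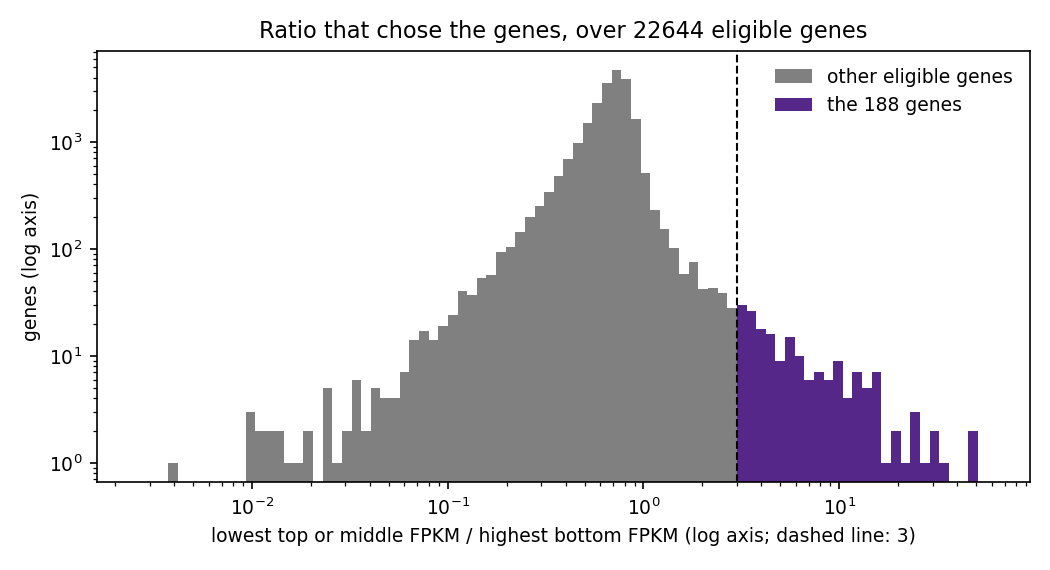
Number of eligible genes (log axis) by the ratio of the lowest top or middle FPKM to the highest bottom FPKM (log axis). The dashed line marks the ratio of 3 that chose the 188 genes, drawn in purple, and most eligible genes lie below a ratio of 1.

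There was no break in the distribution at the limit of 3. A ratio between 3 and 3.5 was held by 37 genes and one between 2.5 and 3 by 47 eligible genes. Pop_A06G089365 was the gene nearest inside the limit, with a ratio of 3.01. It had 15.7, 13.5 and 11.4 FPKM in top libraries, 32.1, 68.7 and 5.89 in middle libraries, and 1.96, 0.89 and 1.00 in bottom libraries. Middle library 3 was the lowest of its 6 upper libraries and overlapped with no bottom library. Pop_G02G065519, with a ratio of 3.02, was more even within positions, at 54.8, 81.3 and 109.0 FPKM in top libraries, 54.1, 105.1 and 70.5 in middle libraries, and 14.1, 16.6 and 17.9 in bottom libraries. Just outside were Pop_A01G003963 and Pop_G08G082134, each with a ratio of 2.99. Pop_A01G003963 had 82.0, 21.6 and 8.12 FPKM in top libraries, 88.5, 72.2 and 11.2 in middle libraries, and 2.71, 1.76 and 0.58 in bottom libraries. Its lowest upper library was top library 3, and its top libraries spread more widely than those of Pop_G02G065519.

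The most abundant genes of the group were Pop_G01G067608 and Pop_A01G010137. Pop_G01G067608 had 260.8, 400.8 and 313.5 FPKM in top libraries, 292.7, 809.8 and 254.4 in middle libraries, and 82.4, 50.2 and 65.5 in bottom libraries. Pop_A01G010137 had 266.6, 384.0 and 303.0 FPKM in top libraries, 293.9, 838.7 and 220.5 in middle libraries, and 68.1, 49.2 and 65.3 in bottom libraries. In both, the bottom libraries lay below all 6 others and middle library 2 lay above the rest. They were also the 2 genes with the highest bottom mean, and that mean was above the median of the other eligible genes. In edgeR's quasi-likelihood test, Pop_G01G067608 differed by a log2 fold change of -2.37 ± 0.46 (SE) for bottom against top (adjusted p = 0.00687) and by -2.84 ± 0.47 (SE) for bottom against middle (adjusted p = 0.0321, 3.02e-08 to 0.187 over all alternatives). The gene length implied by counts and FPKM was 411 bp for both identifiers.

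The deepest falls were those of Pop_G17G033358 and Pop_A17G075184, with ratios of 47.1 and 46.9. Pop_G17G033358 had 20.9, 12.7 and 7.26 FPKM in top libraries and 25.4, 73.1 and 9.02 in middle libraries, and its bottom values of 0.05, 0.09 and 0.15 rested on 2, 4 and 7 read pairs. Pop_A17G075184 had 20.7, 13.8 and 9.11 FPKM in top libraries and 14.8, 77.1 and 7.13 in middle libraries, and its bottom values of 0.15, 0.06 and 0.11 rested on 5, 2 and 4 read pairs. Within the top, both were highest in library 1 and lowest in library 3, and within the middle both were highest in library 2. For bottom against top the log2 fold change of Pop_G17G033358 was -7.18 ± 0.96 (SE, edgeR adjusted p = 0.00193), and that of Pop_A17G075184 was -7.16 ± 1.08 (SE, edgeR adjusted p = 0.00276). With so few read pairs, counting error limits these bottom levels.

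Other genes dropped by a smaller factor but with close replicates. Pop_A10G001367 had 46.1, 42.1 and 39.9 FPKM in top libraries, 42.8, 44.3 and 35.3 in middle libraries, and 9.03, 7.79 and 9.45 in bottom libraries. Its coefficient of variation was at most 11.8% at any position, the smallest such maximum among the 188 genes. Top and middle overlapped, and the bottom mean of 8.76 ± 0.86 FPKM stood against 40.8 ± 4.81 in the middle and 42.7 ± 3.15 in the top (SD, n = 3 each). Pop_G05G008739 had 171.2, 185.6 and 182.5 FPKM in top libraries, 231.2, 326.4 and 243.5 in middle libraries, and 45.9, 49.5 and 40.1 in bottom libraries. Its 3 middle libraries all lay above its 3 top libraries, but the log2 fold change of 0.55 ± 0.19 (SE) for middle against top did not pass the test (edgeR adjusted p = 0.0755). Both genes passed for bottom against middle, with log2 fold changes of -2.27 ± 0.16 (SE) and -2.61 ± 0.2 (SE, edgeR adjusted p = 0.00565 each).

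**Figure D3:**
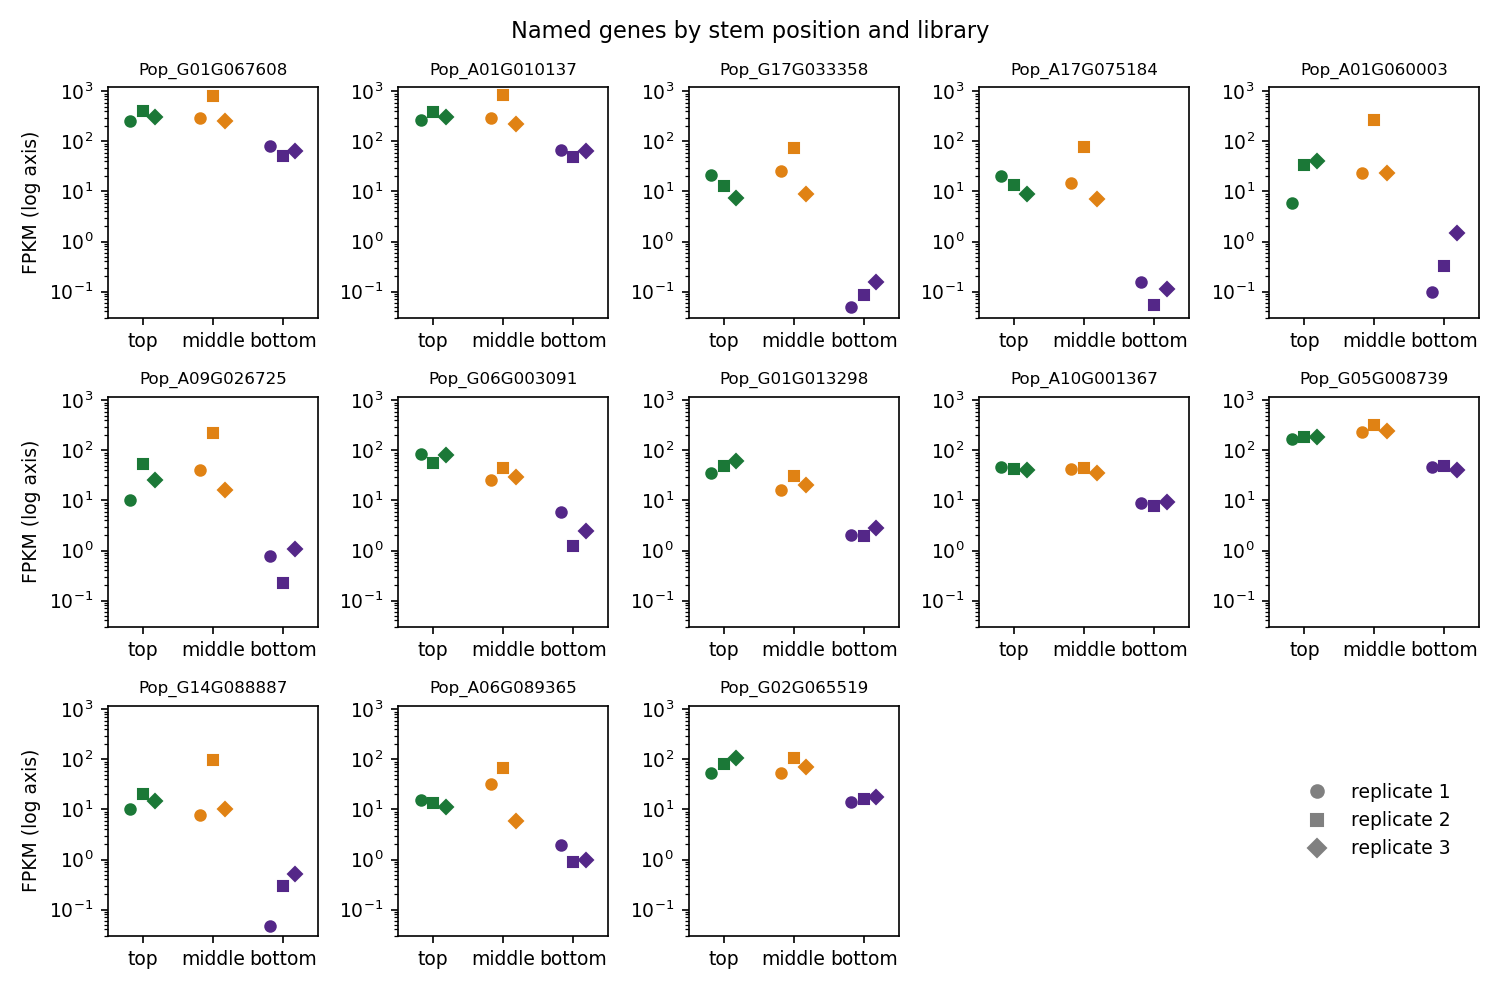
FPKM (log axis) of 13 of the 188 genes by stem position, with 1 point per library and a marker shape per replicate number. In each panel the 3 bottom libraries lie below the 6 others, and middle replicate 2 lies highest among the middle libraries.

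The rule left the relation of middle to top free within limits. The 3 middle and 3 top libraries overlapped in 178 of the 188 genes. Middle lay wholly above top in 4 genes (against 14.3% of all eligible genes) and wholly below top in 6 genes (against 23.1%). Without middle library 2 the positions overlapped in 157 of the 188 genes. Middle then lay wholly above top in 4 genes and wholly below in 27 (14.4%). Of the other eligible genes, 21.4% then lay above and 25.8% below. In edgeR's test, 2 of the 188 genes passed as lower in the middle than in the top, where 10.4% of the 52436 genes tested did. Higher in the middle were 0 of the 188, where 8.2% of the genes tested passed. An unadjusted edgeR p under 0.05 in that direction was held by 11 of the 188, and the share over all genes at that limit was not counted. DESeq2 called 7 of the 188 as higher in the middle, against 7087 of 52167 genes tested. With limma on log2(FPKM + 1) it was 1 of the 188, against 4420 of 52436. Same-numbered top and middle libraries deviated together, and with the replicate number as a block edgeR called 2 of the 188 higher and the same 2 lower. Over all genes tested, that fit called 3951 higher and 4851 lower. The 2 higher genes were Pop_G01G002756 (log2 fold change 1.20, edgeR adjusted p = 0.0203 with the block and 0.0518 without) and Pop_G17G066958 (0.99, edgeR adjusted p = 0.0223 with the block and 0.235 without). The rule used this contrast, so nothing is read from these counts.

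The 2 genes lower in the middle were Pop_A08G064105 and Pop_G01G013298. Pop_A08G064105 had 20.6, 26.0 and 23.1 FPKM in top libraries, 12.1, 15.0 and 9.44 in middle libraries, and 1.63, 1.53 and 2.52 in bottom libraries. Its log2 fold change for middle against top was -0.96 ± 0.23 (SE, edgeR adjusted p = 0.0199), and it was picked out only because it passed this test. Pop_G01G013298 had 36.1, 48.9 and 62.8 FPKM in top libraries, 16.4, 31.2 and 20.6 in middle libraries, and 2.02, 1.92 and 2.86 in bottom libraries. It changed by -1.13 ± 0.29 (SE) between middle and top (edgeR adjusted p = 0.0276, 0.00667 to 0.116 over all alternatives). In both genes the 3 positions did not overlap and stepped down from top to bottom. Both calls were lost without top library 2, top library 3, middle library 1 or middle library 3, with edgeR adjusted p-values of 0.0617 to 0.0771 for Pop_A08G064105 and 0.0665 to 0.116 for Pop_G01G013298. Pop_G06G003091 had the smallest middle to top ratio of the group, 0.445, with 85.6, 56.2 and 81.3 FPKM in top libraries, 25.5, 44.3 and 29.4 in middle libraries, and 5.76, 1.21 and 2.43 in bottom libraries, but did not pass (edgeR adjusted p = 0.12, 0.0409 to 0.29 over all alternatives).

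The largest middle to top ratios belonged to Pop_A01G060003 and Pop_A09G026725. Pop_A01G060003 had 5.98, 33.14 and 40.99 FPKM in top libraries, 23.1, 266.1 and 23.5 in middle libraries, and 0.10, 0.32 and 1.47 in bottom libraries. Middle library 2 held 85.1% of its summed middle FPKM, the largest share of any of the 188 genes. The other middle libraries fell within the range of the top libraries. Pop_A09G026725 had 10.1, 52.6 and 25.4 FPKM in top libraries, 41.4, 222.5 and 16.5 in middle libraries, and 0.77, 0.22 and 1.06 in bottom libraries. Pop_G14G088887 came next in the share held by middle library 2, with 84.3%, and had 10.3, 20.5 and 14.8 FPKM in top libraries, 7.83, 96.1 and 10.02 in middle libraries, and 0.05, 0.29 and 0.51 in bottom libraries. For bottom against middle Pop_A01G060003 had a log2 fold change of -7.44 ± 1.48 (SE, edgeR adjusted p = 0.068). Its adjusted p was 0.0453 to 0.327 over all alternatives except DESeq2, which gave none for this gene. Pop_A09G026725 had a log2 fold change of -7.17 ± 1.23 (SE, edgeR adjusted p = 0.0387, 2.75e-09 to 0.205 over all alternatives). Both thus lay near the threshold. For middle against top, neither Pop_A01G060003 (edgeR adjusted p = 0.255) nor Pop_A09G026725 (edgeR adjusted p = 0.251) passed.

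High values in middle library 2 ran through nearly the whole group. It was the highest middle library in 177 of the 188 genes, or 94.1%, against 23.0% of the other eligible genes. In 112 genes it was at least 2 times the next middle library, which held for 1.65% of the other eligible genes. The median ratio of middle library 2 to the mean of the other middle libraries was 2.93 for the 188 genes and 0.923 for the other eligible genes. The rule took the lowest of the upper libraries and so did not ask for a high value in any 1 of them. Applied without middle library 2, the rule found 179 genes, all of them among the 188. Those it then missed had a gap of at least 1.5 times between their top and the remaining middle libraries.

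The direction between middle and top changed without that library. The middle mean exceeded the top mean in 149 of the 188 genes, with a median ratio of 1.42. Without middle library 2 it did so in 59, and the median ratio was 0.865. The median coefficient of variation of the 188 genes was 33.1% in top, 69.8% in middle and 34.5% in bottom libraries, against 13.4%, 13.9% and 10.8% for the other eligible genes. Without middle library 2 it was 31.6% in the middle, against 10.5%. These medians were higher in the group than in the other eligible genes at each of the 3 positions, with or without that library. No test of the difference was made. In bottom libraries 1, 2 and 3 the 188 genes had a median of 59.5, 54 and 72.5 read pairs, a low level set by the rule. The groups were not matched for level, and the part of counting error in these coefficients was not tested.

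**Figure D4:**
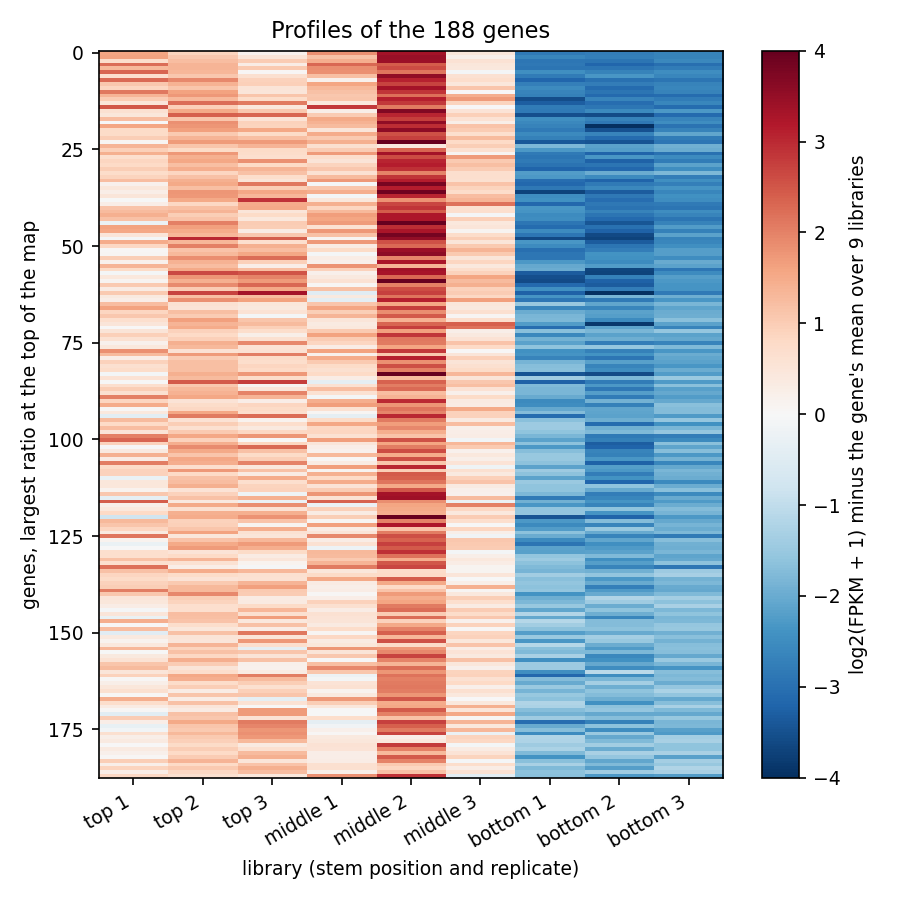
Profiles of the 188 genes over the 9 libraries, as log2(FPKM + 1) minus the mean of the gene over all libraries, with the gene of the largest ratio at the top. Blue columns are the 3 bottom libraries, and the darkest red column is middle library 2, which is the highest middle library in 177 genes.

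Spread was also seen among the top and bottom libraries. Among top libraries, number 1 was highest in 47 genes, number 2 in 83 and number 3 in 58. Top library 1 was lower than the mean of the other top libraries by a median ratio of 0.746, against 1.02 for the other eligible genes. Among bottom libraries, number 2 was highest in 25 genes, against 80 for number 1 and 83 for number 3. Its median ratio to the mean of the other bottom libraries was 0.688, against 0.965 for the other eligible genes. All bottom libraries nevertheless lay below all upper libraries in each of the 188 genes, which the rule requires.

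Because every library took part in choosing the genes, each was also left out in turn, the genes were chosen from the other 8, and the library left out was then read. Without bottom library 1 the rule gave 243 genes, of which 188 (77.4%) were at least 3 times lower in bottom library 1 than in their lowest upper library. Among the eligible genes 1.05% were. For bottom library 2 it was 188 of 195 genes (96.4%, against 1.47% of the eligible), and for bottom library 3 it was 188 of 209 (90%, against 1.17%). The median ratio of lowest upper library to the bottom library left out was 4.86, 8.31 and 5.9 for bottom libraries 1, 2 and 3. Of the 243 genes chosen without bottom library 1, 1 was higher in that library than in its lowest upper library, and 0 genes were so for the other bottom libraries.

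Reading the upper libraries in the same way gave similar shares. Of the genes chosen without middle libraries 1, 2 and 3, 84.3%, 100% and 83.7% were at or above 5 FPKM and 3 times the highest bottom library in the middle library left out, against 1.39%, 3.1% and 1.53% of the eligible genes. All 179 genes chosen without middle library 2 met this in middle library 2, where their median ratio to the highest bottom library was 25.0. For top libraries 1, 2 and 3 the shares were 81.9%, 98.4% and 95.4%, against 1.83%, 2.91% and 2.82%. Over all 9 libraries 1666 of 1871 values kept the rule, or 89%, against 1.92% for the eligible genes. These values mostly repeat the same genes across libraries and are not independent.

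Tests over the whole table are given as a description, since the same libraries chose the genes. In edgeR's quasi-likelihood model 188 of 188 were lower in bottom than in top libraries at an adjusted p under 0.05, where 15.1% of the 52436 genes tested were. For bottom against middle 170 of 188 were lower, where 0.795% of the genes tested were, and the other 18 had adjusted p-values of 0.0541 to 0.1. The median log2 fold change of the 188 genes was -3.89 for bottom against top and -4.27 for bottom against middle. Conversely, these 170 made up 40.8% of the 417 genes called lower in bottom than in middle libraries. Of the other genes called, 102 were under 5 FPKM in an upper library and 145 were under the ratio of 3.

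The calls for bottom against middle depended on having all 3 bottom libraries, in the 188 genes and over the whole table. Without bottom library 1, 2 or 3, edgeR called 12, 1 and 0 of the 188 genes. Over all genes tested, 15, 1 and 0 were then called lower, against 417 with all 9 libraries. All 188 still had a lower bottom level with an unadjusted edgeR p under 0.05 in each case. The rule requires lower bottom libraries, and the share over all genes at that limit was not counted, so nothing is read from it. In those fits the median log2 fold change of the 188 was -4.36, -4.18 and -4.34. Without middle library 2 it was -3.60, and 159 of the 188 genes were called, against 345 of all genes tested. Without top library 2 or 3, 127 and 114 of the 188 were called, against 255 and 223 of all genes tested. For bottom against top, 181 to 188 of the 188 were called whichever library was left out, against 4421 to 8273 of all genes tested. For bottom against top 179 of the 188 were called in all 9 such fits, and for bottom against middle 0 were. The share of all genes called in all 9 fits was not counted.

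Applying the same limits with another position in the odd role showed how the group compares in size. Low in the top libraries, with all middle and bottom libraries at least 3 times the highest top library, were 232 genes. The limits asked only that no gap of at least 1.5 times lay between all middle and all bottom libraries. High in the top libraries were 143 genes. With the middle in the odd role there were 3 genes low and 0 high. High in the bottom libraries alone were 0 genes, against the 188 that were low there. At these limits, the bottom departed from both upper positions in the downward direction only.

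Gene length was not part of the rule, and the genes were shorter at the median than other eligible genes. The length implied by counts and FPKM had a median of 1021 bp, with quartiles of 702 and 1473, against 1439 bp with quartiles of 902 and 2148 for the other 22456 eligible genes. Under 1000 bp were 88 of the 188 genes (46.8%), against 29.7% of the others. Along the ratio itself, median length was 1497 bp at ratios of 0.5 to 1, 1446 bp at 1 to 1.5, 1330 bp at 1.5 to 2, 1225 bp at 2 to 3 and 1021 bp at 3 or more. Eligible genes with a ratio under 0.5, which were lower in some upper library than in some bottom library, were also shorter, at 1205 bp. A short gene holds fewer reads at a given FPKM. The part of length in the selection was not tested.

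**Figure D5:**
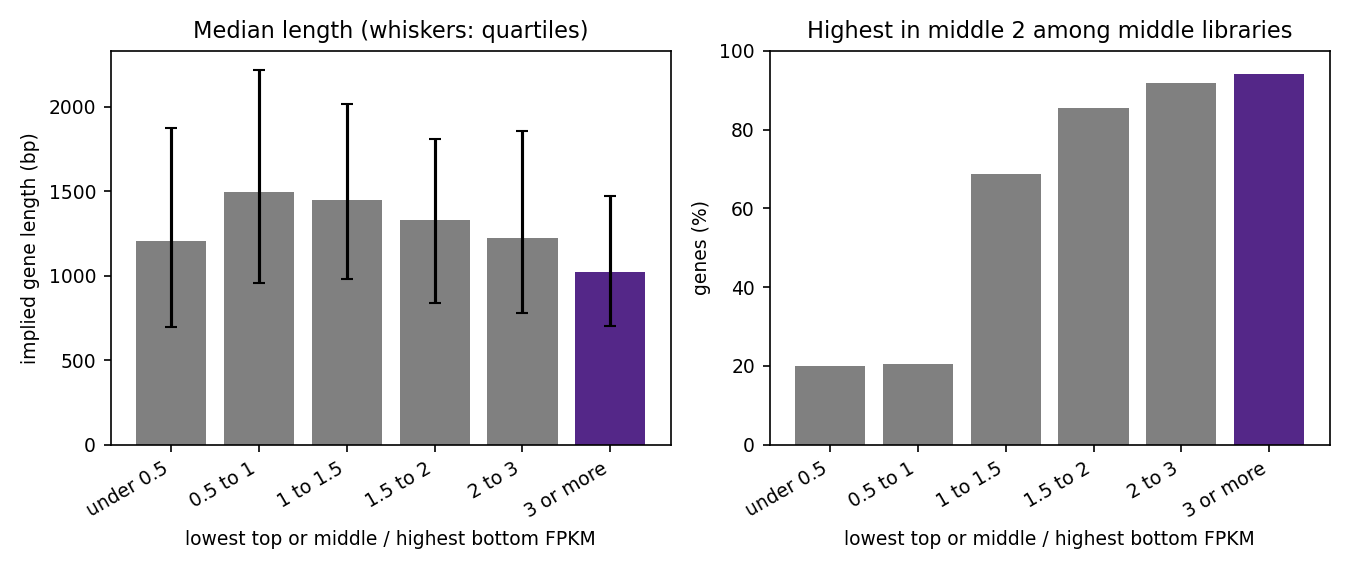
Eligible genes by the ratio of lowest top or middle FPKM to highest bottom FPKM, with the 188 genes in purple. Left, median gene length in bp implied by counts and FPKM, with quartiles as whiskers, which is 1021 bp for the 188 genes. Right, the percentage of genes whose highest middle library is number 2, which is 20.5% at ratios of 0.5 to 1 and 94.1% at 3 or more.

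The share of genes highest in middle library 2 also went up with the ratio. It was the highest middle library in 20.5% of eligible genes with a ratio of 0.5 to 1, in 68.8% at 1 to 1.5, in 85.4% at 1.5 to 2, in 91.9% at 2 to 3, and in 94.1% of the 188 genes. Genes just short of the limit thus shared this feature with the 188. By correlation of log2(FPKM + 1) over the 9 libraries with the median profile of the 188, the most similar eligible genes outside the group were Pop_A06G053582 (r = 0.993) and Pop_A18G013026 (r = 0.991). Pop_A06G053582 had 45.0, 57.6 and 51.5 FPKM in top libraries, 46.0, 93.7 and 38.8 in middle libraries, and 16.9, 13.6 and 15.2 in bottom libraries, a ratio of 2.3. Pop_A18G013026 had 49.7, 53.5 and 63.1 FPKM in top libraries, 58.8, 108.6 and 44.5 in middle libraries, and 16.3, 15.1 and 17.3 in bottom libraries, a ratio of 2.57. All genes share the same 9 libraries, and no p-value is attached to these correlations.

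The identifiers carry a letter A or G with a number from 1 to 19, or Un, and are used here only as classes. Class A held 85 of the 188 genes (45.2%), class G 101 (53.7%) and Un 2 (1.06%), against 49.9%, 48.6% and 1.52% of the other eligible genes. By number, the share of eligible genes that belonged to the group was highest for number 17, with 13 of 710 (1.83%), and number 9, with 18 of 1071 (1.68%). It was lowest for number 11, with 1 of 531 (0.19%), and number 10, with 5 of 1664 (0.3%).

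Several of the genes had neighbouring serial numbers. Counting eligible genes of the same class and number whose serial differed by at most 2, the 188 genes had 248 such neighbours, and 18 of these (7.26%) were themselves among the 188. Of all eligible genes 0.83% were. The 18 genes formed 9 pairs. The window was set after the identifiers had been seen, and whether serial numbers follow genome order was not tested.

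The pairs with number 12 show how alike such genes could be, and were picked after their values were seen. Pop_A12G007906 had 48.6, 189.2 and 179.4 FPKM in top libraries, 72.2, 294.7 and 69.6 in middle libraries, and 2.13, 2.03 and 3.20 in bottom libraries. Its neighbour Pop_A12G007908 had 18.2, 161.8 and 106.9 FPKM in top libraries, 20.4, 226.4 and 39.0 in middle libraries, and 0.65, 0.55 and 2.15 in bottom libraries. In class G, Pop_G12G084719 had 15.8, 56.1 and 50.2 FPKM in top libraries, 15.1, 84.9 and 21.1 in middle libraries, and 0.21, 0.46 and 0.96 in bottom libraries. Pop_G12G084721 had 16.4, 113.2 and 103.4 FPKM in top libraries, 20.2, 177.3 and 33.9 in middle libraries, and 0.80, 0.41 and 2.21 in bottom libraries. All 4 were lower in top library 1 than in the other top libraries and highest in middle library 2.

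Lengths were also set side by side between class A and class G genes. Of 581 pairs made of 1 class A and 1 class G gene with the same number, 13 (2.24%) agreed in implied length within 0.5%, against 43 of 8004 pairs (0.537%) with different numbers. Pop_A18G018961 and Pop_G18G083239 were such a pair, each with a length of 190 bp. Pop_A18G018961 had 118.0, 155.4 and 138.2 FPKM in top libraries, 123.2, 400.4 and 145.2 in middle libraries, and 8.22, 6.20 and 7.72 in bottom libraries. Pop_G18G083239 had 149.4, 205.1 and 191.7 FPKM in top libraries, 159.3, 571.8 and 152.0 in middle libraries, and 7.22, 7.48 and 12.3 in bottom libraries. The pair was picked after its values were seen. Where 2 identifiers stand for near-identical copies, the counting could have divided their reads, and so the likeness of such pairs is uncertain.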

How the data were processed

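Poly(A) RNA from 9 stem libraries was read as paired ends, per the labels. The submitters' processing notes list Trimmomatic 0.36 for trimming and HISAT2 for alignment. Not given in the sources used here are genome build, annotation, counting program and strandedness, so reads shared by overlapping genes could not be examined. The authors deposited whole-number read counts per gene and FPKM values, which they scaled to gene length and library total. Columns were matched by the library code in the sample title. The members and lists were chosen with earlier results of these data known.

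The 188 genes were found by applying the rule to the deposited FPKM values. Across all genes, edgeR 4.0.16 in R 4.3.3 was run on the deposited counts: filterByExpr (minimum count 10, minimum total count 15), TMM scaling, 1 quasi-likelihood model over 9 libraries, and Benjamini-Hochberg adjustment over 52436 genes at 0.05. Standard errors are the fold change divided by the root of F. The fitting script was also run on simulated data. Deviations from the position means of same-numbered top and middle libraries correlated at 0.142 to 0.346 over 45083 genes (0.325 to 0.774 over the 188). Pairing is thus possible, but it is not stated in the labels and was not tested. Top library 3 and bottom library 3 correlated at 0.146 over the 45083 genes. Gene length was computed from the ratio of counts to FPKM. Named genes were taken 2 at a time by level, ratio, bottom level, middle to top ratio, coefficient of variation, share of 1 middle library, nearness to the limit and likeness in profile. Other genes named were chosen after their values were seen, as were the serial window of 2 and the length tolerance of 0.5%. DESeq2 1.42.0, limma 3.58.1 on log2(FPKM + 1), other scalings, no filter, read pairs, a replicate block and leaving out libraries were the alternatives. Chi-square divided by its degrees of freedom was 22.7 to 55.9 between libraries of 1 position, so all 9 were kept as separate samples. A planned comparison with genes left out by the gap of 1.5 times was void, since there were 0 such genes, and marker lists by gene name could not be matched.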

Additional observations from a re-analysis of the deposited data

How the results depend on the processing

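The rule gave 323 genes at a ratio of 2 and 123 at a ratio of 4, and 179 to 243 when a library was left out. The members called lower in bottom than middle numbered 170, with 0 to 176 when 1 library was left out. Over all genes tested these calls numbered 417, with 0 to 562 when 1 library was left out. Members called lower in bottom than top numbered 181 to 188, against 4421 to 8273 of all genes tested. For middle against top, calls of higher genes numbered 0, against 7 in DESeq2, 1 each in limma, with upper quartile scaling, with no filter on low counts and on read pairs, and 0 to 9 without 1 library. Calls of lower genes were 0 to 7 without 1 library, against 2. Over all genes tested, calls of higher genes numbered 4301, against 7087 in DESeq2 and 2656 to 4494 without 1 library. Calls of lower genes over the whole table numbered 5478, and 3202 to 4937 without 1 library. The median log2 fold change of members in limma on log2(FPKM + 1) was -3.45 for bottom against middle and -3.18 for bottom against top. It was -4.49 to -3.60, -3.94 to -3.70 and, for middle against top, -0.25 to 0.79 when 1 library was left out. The last turned to -0.25 without middle library 2, and the ratio of middle to top mean turned to 0.865 (an alternative chosen after the data were seen). Without that library the log2 fold change for middle against top turned to -0.23 in Pop_A01G060003 (up to 2.52 without another library) and -0.07 in Pop_A09G026725 (up to 2.41). Values of the library left out kept the rule in 96.3% of cases at a ratio of 2 and 78.6% at 4. Among eligible genes these shares were 3.68% and 1.33%. The median length of other eligible genes was 1453 bp at counts of at least 100. The replicate block gave 154 and 188 members lower in bottom than middle and top, against 408 and 7368 of all genes tested. It gave 2 members higher and 2 lower in middle than top, against 3951 and 4851 of all genes tested. For bottom against middle the block ended the calls of Pop_G01G067608 (adjusted p = 0.0593), Pop_A01G010137 (0.0571), Pop_A09G026725 (0.0613) and Pop_A06G089365 (0.0537) and added that of Pop_A01G060003 (0.0453), in edgeR. Over all genes, bottom libraries correlated with same-numbered others at r = -0.177 to 0.146, of mixed sign. Of 18 comparisons over the 3 positions, 13 matched best with the own number. Over the 188 genes, r was 0.117 to 0.453 for middle and bottom and -0.108 to 0.379 for top and bottom. Same-numbered bottom libraries may thus be paired with the others in part in these genes, and the main fit used no block. The causes were not tested. Bottom levels of few read pairs are limited by depth.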
